A study of Homo sapiens with 28 samples.

Results

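The genes described here are the 5 survival genes and the 3 effector genes of the BCL2 family. The survival genes were BCL2, BCL2L1 (which encodes BCL-XL), BCL2L2 (BCL-w), MCL1 and BCL2A1 (BFL-1, also called A1), and the effector genes were BAX, BAK1 and BOK. They were chosen by gene name, 8 of the 58735 genes in the count table, and all 8 were measured well enough to be tested in every comparison. BAX and BAK are the proteins that open pores in the outer mitochondrial membrane, the step that releases cytochrome c and commits a cell to caspase activation, and BOK can do the same by a less understood route. The survival proteins hold BAX, BAK and the BH3-only proteins that activate them in inactive complexes. The proteins of MCL1 and BCL2A1 turn over quickly, so their amount can follow their transcripts more closely than that of long-lived relatives, but only RNA was measured here and no protein or cell death is reported. Cells that lose contact with their matrix can die by this route, a death called anoikis.

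All libraries came from MDA-MB-231, a line from a triple-negative breast cancer, kept under puromycin in 2 forms: one with an empty vector (EV) and one overexpressing tropomyosin 2.1 (Tpm2.1), an actin filament protein encoded by TPM2. Either form was left attached to culture plates for 6 hours or kept in suspension on plates of ultra-low attachment, with times of 5 hours and of 1, 2 and 4 days. Suspended Tpm2.1 cells were divided at each time with beads that carry Annexin V, which binds a lipid exposed on the surface of dying cells, into an apoptotic and a non-apoptotic fraction. This gives 14 groups of 2 libraries: attached EV, attached Tpm2.1, and EV, non-apoptotic Tpm2.1 and apoptotic Tpm2.1 at the 4 times. The labels state no bead separation of EV or attached cells, so the effects of line and of separation cannot be told apart wherever suspended cells of both lines are compared. Each form is represented by 1 derived line, so the effects of Tpm2.1 and of anything else in which the lines differ cannot be told apart. Libraries of 1 group are titled as biological replicates, with nothing said of separate cultures, so the p-values measure the spread between these libraries, which may be partly technical.

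Gene counts summed to 13043529 to 27416335 per library. TPM2, the gene behind the labels, was at 22.7 to 46.1 CPM (counts scaled to library size and composition) in the 10 EV libraries and at 2461 to 7861 CPM in the 18 Tpm2.1 libraries. The cells are labelled epithelial. Of 6 epithelial markers KRT8, KRT18, KRT19 and EPCAM were present in every library, with 446 to 13135, 1209 to 6578, 52 to 1671 and 56 to 247 counts, while CDH1 and KRT7 had at most 7 and 73. Vimentin, a mesenchymal marker, was at 143 to 288 FPKM (fragments scaled to gene length and library size, as deposited). Of markers of blood cells, PTPRC, CD3E and CD68 had at most 3, 1 and 7 counts and CD14 had 5 to 72. Both apoptotic libraries of 4 days stood apart from the other 26: they had counts for 18183 and 18676 genes against 21275 to 24530, and lay at 190 and 193 on the first principal component against -52.3 to 33.8. They held 5.86% and 6.4% of their counts in the 13 mitochondrial mRNAs, against 1.12% to 5.34% in the other 26. In them a gene's level relative to its mean over the libraries fell with the GC content of its transcript (Spearman correlation across genes -0.699 and -0.686, against -0.142 to 0.34 in the other 26). Every result below that rests on these 2 libraries is given with that in view.

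The members lie on 8 chromosomes (hg38): BCL2 at chr18:63123346-63320128, BCL2L1 at chr20:31664452-31723989, MCL1 at chr1:150574551-150579738, BCL2A1 at chr15:79960889-79971446 and BAK1 at chr6:33572547-33580293 on the minus strand, and BCL2L2 at chr14:23298790-23311759, BAX at chr19:48954815-48961798 and BOK at chr2:241551424-241574138 on the plus strand. RefSeq promoter windows (GRCh38.p14, 250 bases before to 50 bases after the annotated start) were at hand for 6 of the 8, all but BCL2L2 and MCL1. The 4 printed here belong to BCL2A1, the member whose level differed most between suspended cells of the lines, and to the 3 effectors, which all had their lowest level in the same group. Capitals mark matches, on either strand, to the E-box letters CACGTG, the AP-1 letters TGACTCA, the GC box letters GGGCGG, the TATA box letters TATAAA, the letters CCAAT or the kappa-B motif, and no printed match overlapped another.
BCL2A1, chr15:79971147-79971446, minus strand: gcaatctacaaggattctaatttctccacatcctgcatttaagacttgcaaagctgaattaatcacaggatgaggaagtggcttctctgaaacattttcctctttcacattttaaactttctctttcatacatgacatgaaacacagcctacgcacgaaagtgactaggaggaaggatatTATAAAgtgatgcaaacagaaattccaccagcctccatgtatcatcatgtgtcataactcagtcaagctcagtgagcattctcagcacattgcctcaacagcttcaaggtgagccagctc
BAX, chr19:48954625-48954924, plus strand: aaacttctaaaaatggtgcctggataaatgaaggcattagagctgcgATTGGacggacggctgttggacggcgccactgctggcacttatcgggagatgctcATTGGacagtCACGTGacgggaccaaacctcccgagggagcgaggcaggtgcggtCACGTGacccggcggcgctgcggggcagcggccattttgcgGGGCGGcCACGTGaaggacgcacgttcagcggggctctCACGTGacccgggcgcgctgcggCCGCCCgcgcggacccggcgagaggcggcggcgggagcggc
BAK1, chr6:33580227-33580526, minus strand: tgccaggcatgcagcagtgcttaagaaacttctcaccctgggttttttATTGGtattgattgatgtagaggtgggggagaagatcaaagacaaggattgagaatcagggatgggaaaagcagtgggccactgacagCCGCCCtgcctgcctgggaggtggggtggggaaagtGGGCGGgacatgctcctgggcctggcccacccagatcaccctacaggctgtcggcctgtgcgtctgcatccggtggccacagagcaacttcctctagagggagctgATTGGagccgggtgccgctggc
BOK, chr2:241558495-241558794, plus strand: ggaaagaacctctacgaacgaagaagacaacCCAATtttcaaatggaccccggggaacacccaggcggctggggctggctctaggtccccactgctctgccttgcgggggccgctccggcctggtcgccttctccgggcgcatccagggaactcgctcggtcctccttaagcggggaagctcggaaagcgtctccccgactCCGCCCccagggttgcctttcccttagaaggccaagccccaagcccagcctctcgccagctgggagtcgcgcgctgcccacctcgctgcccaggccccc
The BCL2A1 window held 1 TATA box, 70 bases before the start, and was 41.0% G or C, and only 13% of all 35116 windows had a lower value. The BAX window held 4 E-boxes, at 138, 93, 45 and 14 bases before the start, and was 67.3% G or C. BAK1 and BOK held CCAAT and GC boxes alone, in windows of 58.7% and 66.7% G or C, and the median window had 58.7%. E-boxes were found in 7.26% of all windows, AP-1 in 4.95%, CCAAT in 34.6%, TATA boxes in 11.5%, kappa-B in 5.91% and GC boxes in 45.0%. None of the members' windows held the AP-1 or kappa-B letters. These matches describe the sequence and are not evidence of binding. The RefSeq starts of all 4 printed windows lie inside the spans the count table gives the genes. The windows of BCL2A1 and BOK lie wholly inside those spans.

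In attached EV cells, BCL2L1 and MCL1 were the most abundant members by length-scaled level, at 127 ± 0.972 and 117 ± 0.0862 FPKM (mean ± SD, n = 2). The effectors followed at 37.6 ± 0.506 FPKM for BAK1, 32.9 ± 0.067 for BAX and 28.8 ± 0.195 for BOK. BCL2L2 was at 13 ± 0.604, BCL2A1 at 10.9 ± 0.647 and BCL2, the founding member of the family, at only 1.57 ± 0.129 FPKM. Levels of 1 gene across groups are given from here as CPM after TMM scaling, a scaling that evens out the composition of the libraries.

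**Figure D1:**
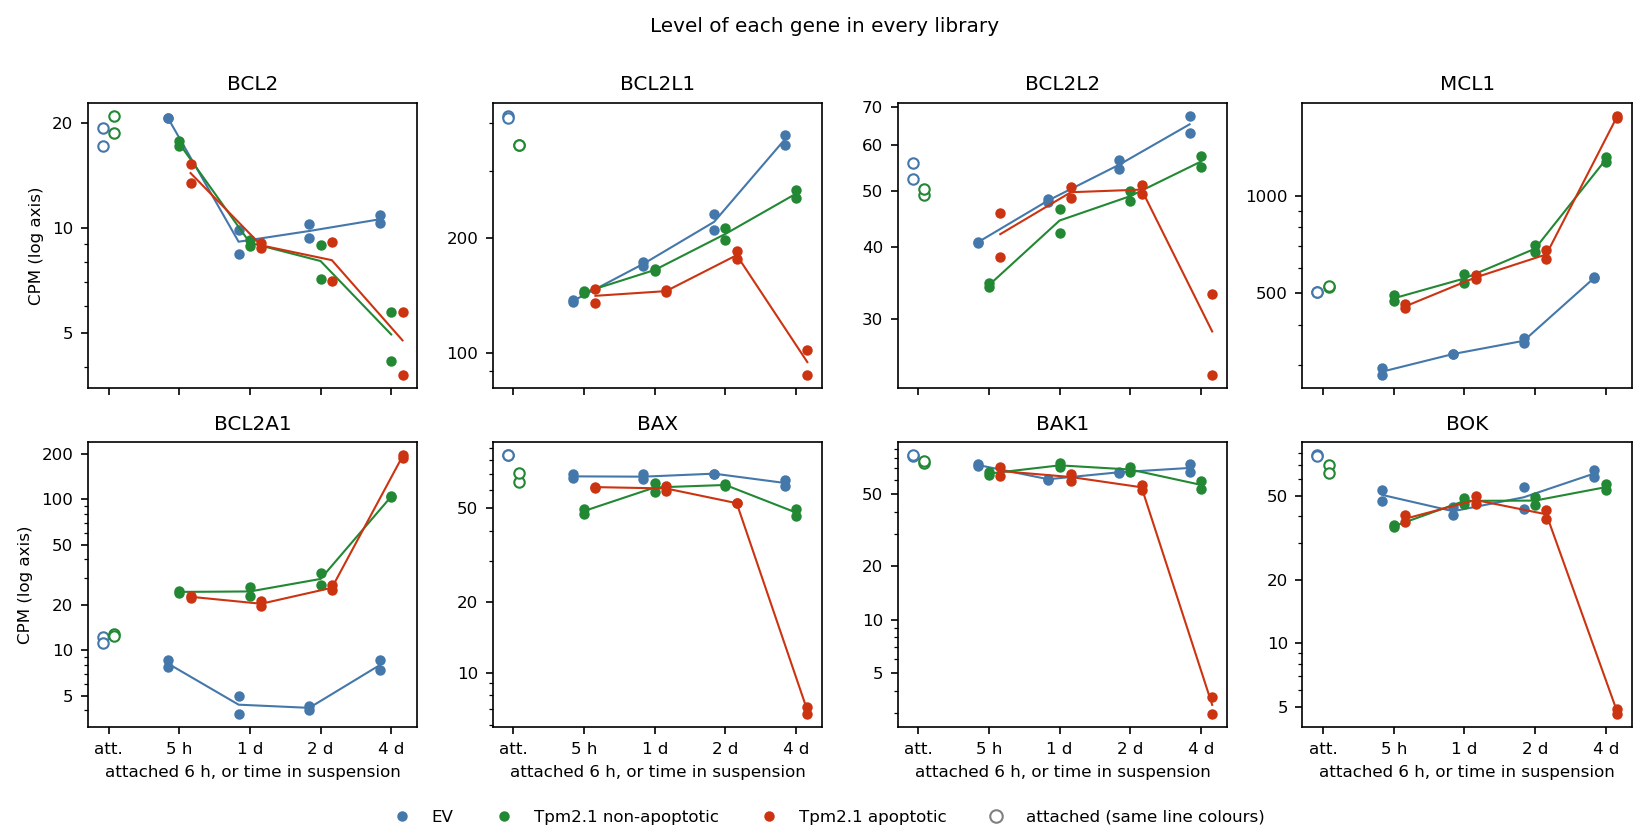
Level of each member (CPM after TMM scaling, log axis) in each of the 28 libraries, by group; open circles are attached cells and points of suspended cells are coloured by arm (EV, non-apoptotic Tpm2.1, apoptotic Tpm2.1). BAX, BAK1 and BOK sit at 7.15 CPM or less in the apoptotic fraction at 4 days and at 35.4 CPM or more in every other library, while MCL1 and BCL2A1 are highest there.

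The first comparison asks whether Tpm2.1 cells differed from EV cells before they lost attachment. Of the 8 members 2 passed the test (edgeR quasi-likelihood test, Benjamini-Hochberg adjusted p under 0.05), both lower in Tpm2.1 cells, where 20.5% of all genes tested passed and 10.1% passed as lower. BCL2L1, whose product holds BAX and BAK in check, was at 419 and 413 CPM in the EV libraries and at 352 and 351 in the Tpm2.1 libraries. It fell by 0.24 ± 0.056 on the log2 scale (± SE, adjusted p = 0.00133). BAX was at 84.3 and 84.3 CPM against 64.5 and 70.5 and fell by 0.32 ± 0.061 (adjusted p = 1.38e-04). The groups did not overlap for either gene. MCL1, at 505 and 504 CPM in EV and 522 and 526 in Tpm2.1 cells, and BOK, at 77.9 and 76.9 and 70.2 and 64.2, did not overlap between the lines either but did not pass, with log2 fold changes of 0.06 ± 0.05 and -0.20 ± 0.078. The other 4 had log2 fold changes from -0.12 for BCL2L2 to 0.12 for BCL2. BOK passed as lower under 7 of 13 alternatives, among them DESeq2 size factors, no filter on low counts and the GC correction (-0.22). Fitted on the 4 attached libraries alone, MCL1 (0.07) and BOK (-0.19) both passed. Of all genes that passed 50.9% were higher in Tpm2.1 cells, and 36.3% after a correction for GC content.

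Detached EV cells, compared with attached EV cells, had less of most members, both survival genes and effectors. In the mean over the 4 times, 7 of 8 members passed, all lower, where 66.3% of all genes passed and 32.2% passed as lower. BCL2L1 fell the most at 5 hours, and BCL2A1 fell the most at 1 and 2 days. At 5 hours, 1, 2 and 4 days 7, 7, 7 and 8 of the 8 passed, where 54.7%, 63%, 64.6% and 59.5% of all genes did. At 4 days 2 were higher and 6 lower (31.6% and 28% of all genes), and all but BAX and BCL2L2 lay nearer to the attached level than at 2 days. Of these, BCL2L1, MCL1 and BOK also lay nearer to it than at 5 hours and 1 day, and BCL2, BCL2A1 and BAK1 lay farther from it than at 5 hours. Of all genes that passed in the mean 51.5% were higher, and 62.6% with libraries scaled by their totals alone, which moved the median log2 fold change of all genes from 0.065 to 0.209.

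BCL2L1 dropped from 419 and 413 CPM in attached EV libraries to 138 and 136 at 5 hours, and was at 169.7 and 173 at 1 day, 210.4 and 231 at 2 days and 374 and 352 at 4 days. Its log2 fold change against attached cells was -1.60 ± 0.059 at 5 hours and -0.20 ± 0.056 at 4 days, with no overlap of the groups at any time. MCL1, whose product is short-lived, was at 293 and 279.6, 324 and 324, 363 and 350.0 and 558 and 561 CPM at the same times, against 505 and 504 in attached cells. It was lower at 5 hours (-0.82 ± 0.051, adjusted p = 2.09e-16), 1 day and 2 days, and higher at 4 days by 0.15 ± 0.05 (adjusted p = 0.01). BCL2A1, an inducible survival gene, was at 12.3 and 11.2 CPM in attached cells and at 8.63 and 7.72, 3.78 and 4.95, 4.02 and 4.3 and 7.35 and 8.63 in suspension. It fell by 1.40 ± 0.14 at 1 day and by 1.49 ± 0.14 at 2 days, the largest falls of a member at those times. These levels are low, and 1 library held as few as 54 counts of BCL2A1.

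BCL2 itself followed another course: at 5 hours it was at 20.6 and 20.6 CPM against 19.3 and 17.1 in attached cells (0.18 ± 0.13, not passing), and at 1 day it was at 8.4 and 9.86. It fell by 0.98 ± 0.14 at 1 day, 0.90 ± 0.14 at 2 days and 0.78 ± 0.14 at 4 days. BCL2L2 had 52.4 and 55.8 CPM in attached cells, 40.6 and 40.7 at 5 hours and 62.9 and 67.5 at 4 days, so that it was lower at 5 hours (-0.41 ± 0.085) and higher at 4 days (0.27 ± 0.082). In the mean over times it did not pass (-0.07 ± 0.064, 95% interval -0.19 to 0.06), but it passed as lower after the GC correction (-0.17) and without 4 days (-0.18).

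Among the effectors, BAX was at 67.1 and 69.7, 70.0 and 66.4, 70.3 and 70.3 and 66 and 62.3 CPM in suspended EV cells against 84.3 and 84.3 in attached cells, and its log2 fold change stayed between -0.26 and -0.39. BAK1 was at 81.7 and 83 CPM in attached cells and between 60.4 and 73.7 in suspension, with a fall of 0.29 ± 0.051 in the mean. BOK showed the largest fall of the 3, by 0.88 ± 0.084 at 1 day, when it was at 44 and 40.4 CPM against 77.9 and 76.9. At 4 days all 8 members passed, but without replicate 2 of the 4-day EV cells only 3 did, BCL2, BCL2A1 and BAX. MCL1 at 4 days was also not called without either attached library or after the GC correction (0.06), and BCL2L2 at 4 days was not called without replicate 1 of the attached cells (adjusted p = 0.0634). The 5-hour call of BAK1 was lost without any 1 of the 4 libraries (adjusted p = 0.0575 to 0.102), and it took the opposite sign, 0.02 against -0.17, when libraries were scaled by totals alone. That scaling also ended the calls of BAX at 5 hours (-0.11) and of BAX and BAK1 at 2 days.

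**Figure D2:**
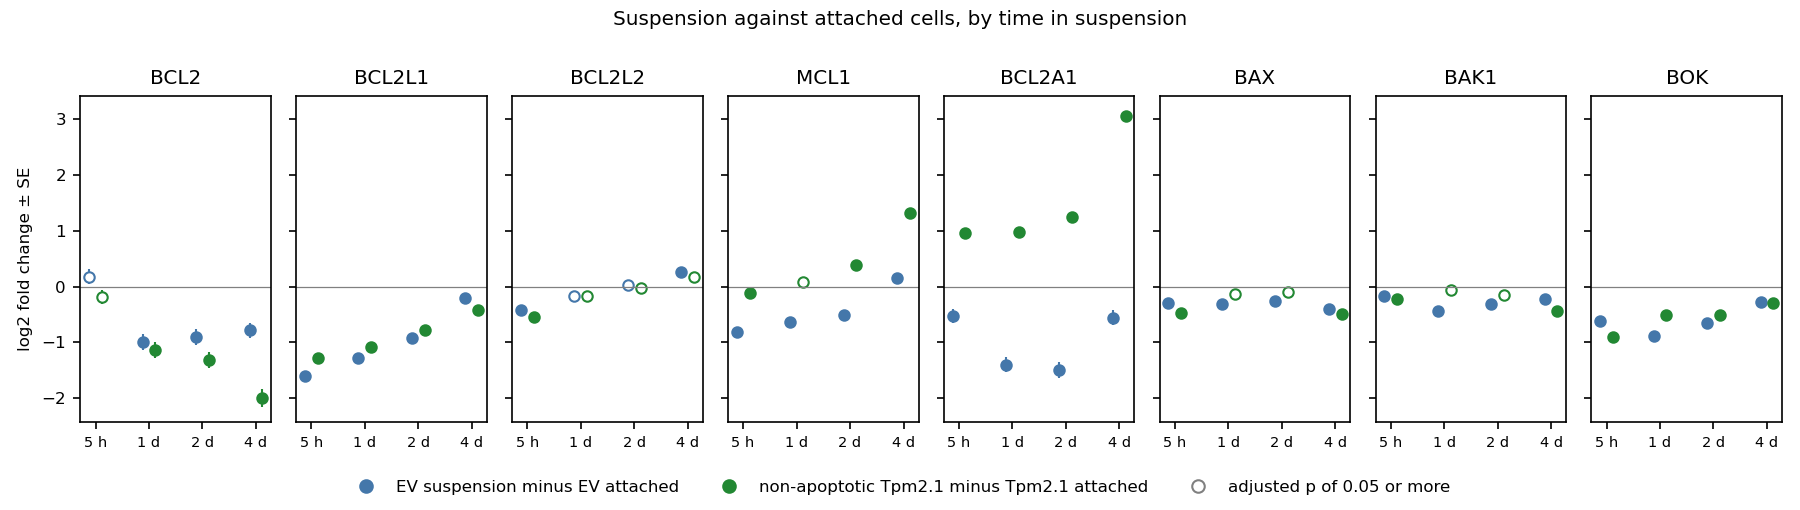
Log2 fold change (± SE) of each member in suspension against attached cells of the same line, by time, for EV cells (blue) and non-apoptotic Tpm2.1 cells (green); open symbols did not pass the test. MCL1 and BCL2A1 lie below 0 in EV cells up to 2 days and BCL2A1 lies above 0 in non-apoptotic Tpm2.1 cells at every time.

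The non-apoptotic Tpm2.1 cells, the suspended cells that did not bind Annexin V beads, were compared with attached Tpm2.1 cells, and the effects of suspension and of bead separation cannot be told apart here. In the mean over times 7 of 8 members passed, 2 higher and 5 lower, where 61.4% of all genes passed (30.8% higher, 30.6% lower). The 2 that rose were MCL1 and BCL2A1. At 5 hours, 1, 2 and 4 days 7, 4, 5 and 7 of the 8 passed, where 45.2%, 54.8%, 56.8% and 62.4% of all genes did. BCL2, BCL2L1 and all 3 effectors fell. BCL2L2 did not pass (-0.14 ± 0.064, adjusted p = 0.0634), but passed as lower in 9 of 20 alternatives, the GC correction and DESeq2 among them.

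BCL2A1 was at 12.8 and 12.4 CPM in attached Tpm2.1 cells and at 23.9 and 24.8, 23 and 26.1, 32.5 and 26.9 and 105 and 103 in the non-apoptotic fraction from 5 hours to 4 days. It rose by 0.95 ± 0.098 at 5 hours and by 3.05 ± 0.092 at 4 days, an 8.27-fold change. MCL1 was at 522 and 526 CPM in attached cells and at 493 and 472, 539 and 573, 672 and 704 and 1321 and 1275. It was lower by 0.12 at 5 hours, did not pass at 1 day (0.09 ± 0.05), and rose by 0.39 ± 0.05 at 2 days and 1.31 ± 0.05 at 4 days. Both genes thus had their highest non-apoptotic level at 4 days, outside the range of every earlier group of that fraction.

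BCL2L1 was at 352 and 351 CPM in attached Tpm2.1 cells, 145 and 143 at 5 hours and 268 and 256 at 4 days, with log2 fold changes of -1.28 ± 0.058 and -0.42 ± 0.057. BCL2 fell further with time, from 18.7 and 20.9 CPM attached to 17.7 and 17.2 at 5 hours, 9.26 and 8.87 at 1 day, 7.16 and 8.92 at 2 days and 5.75 and 4.17 at 4 days. The 4-day fall was 1.99 ± 0.16, the largest fall of a member in this comparison. Among the effectors, BAX fell by 0.47 at 5 hours and 0.49 at 4 days but did not pass at 1 day (-0.13) or 2 days (-0.10). BOK fell at every time, by 0.91 at 5 hours and 0.29 at 4 days. BAK1 fell by 0.22 at 5 hours and 0.43 at 4 days, with -0.07 and -0.14 between them. At 5 hours the call of MCL1 was lost without any 1 of its 4 libraries (adjusted p = 0.0563 to 0.308), that of BAK1 without replicate 2 of the attached cells or replicate 1 of the fraction (adjusted p = 0.0576 to 0.0641) and after the GC correction (-0.06). The 4-day call of BOK was lost without replicate 1 of the attached cells (adjusted p = 0.0562) and after the GC correction (-0.12).

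The next question is whether suspended cells of the lines differed, which here means non-apoptotic Tpm2.1 cells against unseparated EV cells at the same time. BCL2A1 and MCL1 were the members that differed most, higher in non-apoptotic Tpm2.1 cells at all 4 times. In the mean over times 7 of 8 members passed, 2 higher and 5 lower, where 60.5% of all genes passed (28.6% higher, 32% lower). At 5 hours, 1, 2 and 4 days 5, 3, 3 and 8 of the 8 passed, where 40.9%, 40%, 44.4% and 43.9% of all genes did. The counts at 1 and 2 days are near the share of all genes. BCL2A1 was higher by 2.64 ± 0.059 on the log2 scale, 6.25-fold, and MCL1 by 0.92 ± 0.025, 1.9-fold.

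At 5 hours BCL2A1 was at 23.9 and 24.8 CPM in the non-apoptotic fraction and at 8.63 and 7.72 in EV cells. At 4 days it was at 105 and 103 against 7.35 and 8.63, a difference of 3.70 ± 0.11 or 13-fold. The lines did not overlap for BCL2A1 or MCL1 at any time. MCL1 was at 493 and 472 CPM against 293 and 279.6 at 5 hours and at 1321 and 1275 against 558 and 561 at 4 days, with differences of 0.75 ± 0.051 and 1.21 ± 0.05. The 5 that were lower in the mean were BCL2 by 0.41, BCL2L1 by 0.14, BCL2L2 by 0.19, BAX by 0.30 and BOK by 0.15. Apart from that of BCL2, these differences were 0.30 or less on the log2 scale. BCL2 was at 5.75 and 4.17 CPM against 10.9 and 10.3 at 4 days, a fall of 1.09 ± 0.18, and without that time its mean difference was -0.19 and did not pass (adjusted p = 0.0579). BCL2L1 did not pass without 4 days (-0.03) or after the GC correction (-0.03). BOK, lower in the mean, was higher after the GC correction (0.16), and BAK1 changed from -0.04 to 0.09.

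The change from attached to suspended cells was then compared between the lines. It was tested as the change from attached to non-apoptotic Tpm2.1 cells minus that from attached to suspended EV cells, in the mean over times. Only the suspended Tpm2.1 cells are labelled as separated with beads, so a different response to suspension and an effect of separation cannot be told apart here. The suspension response differed for 3 of the 8 members, 2 higher and 1 lower, where 33.5% of all genes passed (17% higher, 16.6% lower). That count is near the share of all genes. BCL2A1 responded 2.54 ± 0.13 higher on the log2 scale in Tpm2.1 cells (adjusted p = 2.08e-18). It rose by 1.55 in non-apoptotic Tpm2.1 cells and fell by 0.99 in EV cells. MCL1 responded 0.87 ± 0.056 higher (adjusted p = 5.06e-15), with a rise of 0.42 in one line and a fall of 0.45 in the other. BCL2 fell in both lines and its response was -0.53 ± 0.15 (adjusted p = 0.00458). That call was lost without replicate 2 of the attached EV or of the attached Tpm2.1 cells (adjusted p = 0.0577 to 0.0597) and without 4 days (-0.31, adjusted p = 0.114), where MCL1 was 0.77 and BCL2A1 2.19. BCL2L1, at 0.10, passed as higher without 4 days (0.22, adjusted p = 0.0091). For the 3 effectors the difference in response was 0.02 ± 0.069 for BAX, 0.07 ± 0.073 for BAK1 and 0.06 ± 0.09 for BOK, with 95% intervals of -0.12 to 0.15, -0.07 to 0.22 and -0.12 to 0.23. After the GC correction 7 members passed: BCL2L1 (0.22), BAX (0.16), BAK1 (0.22) and BOK (0.38) also passed as higher, and the share of higher genes among all that passed went from 50.6% to 63.6%. Mitochondrial counts moved with these groups, at 3.14 ± 0.0566% (SD, n = 2) in EV cells of 5 hours and 1.53 ± 0.127% in the non-apoptotic fraction, and at 1.20 ± 0.113% and 1.40 ± 0.212% at 4 days. Their part in these results was not tested.

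Within an arm, 4 days in suspension were compared with 5 hours. In EV cells 5 of 8 members passed, where 52.8% of all genes did: BCL2L1 rose by 1.41 ± 0.06, MCL1 by 0.97 ± 0.051, BCL2L2 by 0.68 ± 0.087 and BOK by 0.34 ± 0.086, and BCL2 fell by 0.96 ± 0.14. In the non-apoptotic fraction 7 of 8 passed, where 54.9% of all genes did. BCL2A1, which had a difference of -0.03 ± 0.14 in EV cells, rose by 2.10 ± 0.086 here, and MCL1 by 1.43 ± 0.05. BCL2L1 rose by 0.86, BCL2L2 by 0.71 and BOK by 0.62, while BCL2 fell by 1.81 and BAK1 by 0.21. The small fall of BAK1 was lost without replicate 2 of 5 hours or replicate 1 of 4 days (adjusted p = 0.0848 to 0.192). In the apoptotic fraction all 8 passed, where 77% of all genes did: MCL1 and BCL2A1 rose by 1.95 and 3.09, and the other 6 fell, with log2 fold changes of -4.33 for BAK1, -3.15 for BAX and -3.03 for BOK (35.3% of all genes were higher and 41.6% lower). BCL2L1 and BCL2L2 in that fraction went from -0.58 and -0.56 to 0.75 and 0.08 after the GC correction, and BOK to -0.26 (adjusted p = 0.159). Scaling by totals alone moved the share of higher genes among all that passed from 53.7% to 40.4% in EV cells and from 54.5% to 43.8% in the non-apoptotic fraction.

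Apoptotic and non-apoptotic Tpm2.1 cells from the same times show whether cells that bound Annexin V had another set of family transcripts. Up to 2 days no member that passed differed by more than 0.34 on the log2 scale. At 5 hours 2 of 8 members passed, both higher in apoptotic cells, where 21.4% of all genes passed and 9.66% passed as higher. BCL2L2 was at 38.4 and 45.7 CPM against 34.1 and 34.5 in non-apoptotic cells and rose by 0.30 ± 0.088, and BAX was at 61.2 and 61.9 against 47.5 and 49.9 and rose by 0.34 ± 0.066. At 1 day 2 of 8 passed, both lower, where 19.3% of all genes passed and 11.3% passed as lower: BCL2L1 (-0.18 ± 0.061) and BAK1 (-0.21 ± 0.07). At 2 days 3 of 8 passed, all lower, where 16.6% passed and 9.71% passed as lower: BAK1, at 52.9 and 56.8 CPM against 71.1 and 66.8 (-0.33 ± 0.07), BAX, at 52.7 and 52.5 against 63.5 and 62.3 (-0.26 ± 0.067), and BCL2L1 (-0.19 ± 0.059). At 5 hours and 1 day the counts are near the share of all genes. Mitochondrial counts moved with the fractions at these times, at 4.61 ± 1.04%, 4.24 ± 0.29% and 3.41 ± 1.04% (SD, n = 2) in apoptotic and 1.53 ± 0.127%, 1.48 ± 0.148% and 1.27 ± 0.0636% in non-apoptotic cells, and their part in these calls was not tested.

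MCL1 and BCL2A1, the members that differed most between the lines in suspension, had log2 fold changes between the fractions of -0.08, 0.01 and -0.06 and of -0.11, -0.27 and -0.20 at 5 hours, 1 day and 2 days. In levels, apoptotic cells of 1 day had 569 and 552 CPM of MCL1 and 21.1 and 19.6 of BCL2A1, and non-apoptotic cells had 539 and 573 and 23 and 26.1. Of the 7 early calls, BAX at 5 hours and BAK1 at 2 days passed without any 1 library, and the other 5 did not. The 5-hour call of BCL2L2 was lost without either non-apoptotic library or apoptotic replicate 2 (adjusted p = 0.0681 to 0.343), the 1-day call of BCL2L1 without any of its 4 libraries (adjusted p = 0.08 to 0.129) and that of BAK1 without non-apoptotic replicate 1 or apoptotic replicate 2 (adjusted p = 0.186 to 0.273). The 2-day calls of BCL2L1 and BAX were lost without non-apoptotic replicate 1 (adjusted p = 0.271 and 0.0535), and that of BCL2L1 also without apoptotic replicate 1. The 5-hour calls of BAX (0.13) and BCL2L2 (0.21) were lost after the GC correction, under which 26.2% instead of 45.1% of all passing genes were higher, and BOK, 0.12, was lower (-0.24). Scaling by totals alone moved that share from 41.4% to 58.1% at 1 day, where both calls were then lost, and from 41.6% to 54.4% at 2 days.

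**Figure D3:**
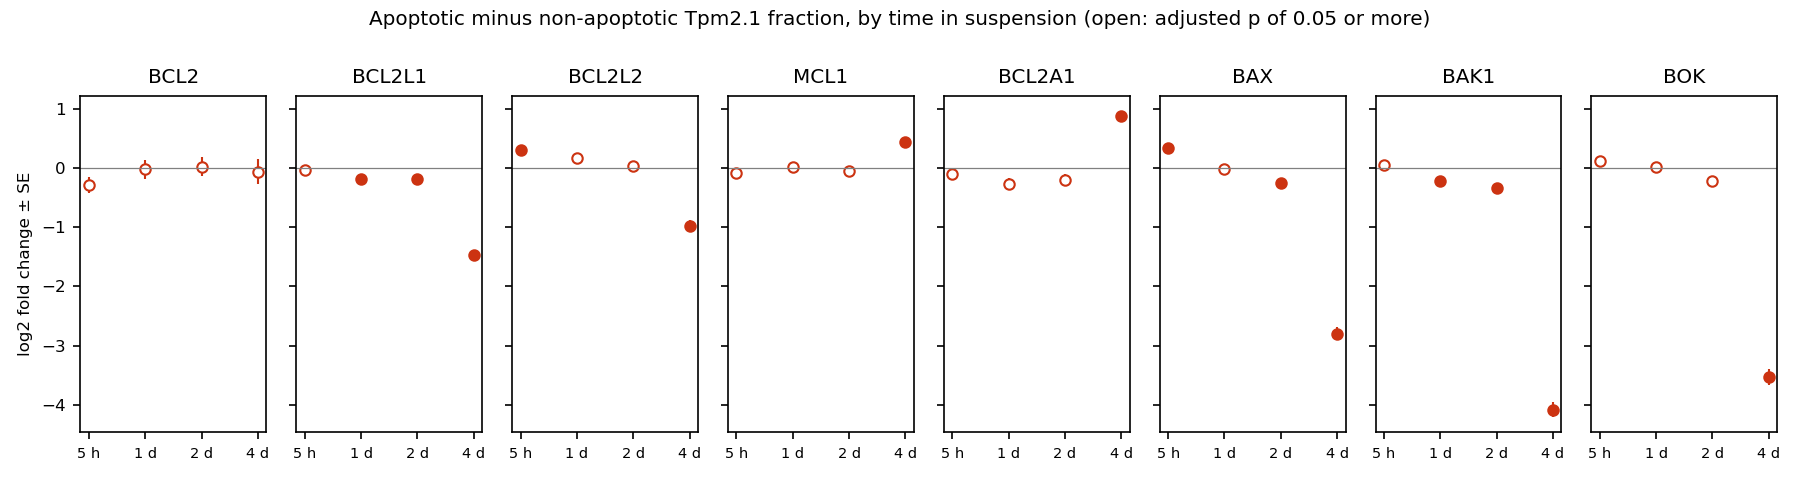
Log2 fold change (± SE) of each member in apoptotic against non-apoptotic Tpm2.1 cells at 5 hours, 1, 2 and 4 days in suspension; open symbols did not pass the test. Up to 2 days all values lie between -0.33 and 0.34, and at 4 days BAX, BAK1 and BOK lie between -4.08 and -2.80.

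At 4 days the effector transcripts were far lower in the apoptotic fraction. BAX was at 7.15 and 6.67 CPM in apoptotic and 49.8 and 46.2 in non-apoptotic cells, BAK1 at 3.71 and 2.96 against 54 and 59.2, and BOK at 4.62 and 4.91 against 56.8 and 53. BAX was 6.94-fold lower (-2.80 ± 0.1), BAK1 16.9-fold (-4.08 ± 0.13) and BOK 11.5-fold (-3.53 ± 0.14). The apoptotic values rest on 79 and 72 counts of BAX, 41 and 32 of BAK1 and 51 and 53 of BOK in the respective libraries. Among the survival genes the changes went both ways. BCL2L1 was at 102 and 87.8 CPM against 268 and 256 and fell by 1.47 ± 0.064, and BCL2L2 was at 33.1 and 24 against 57.4 and 54.9 and fell by 0.98 ± 0.097. MCL1 was at 1751 and 1775 CPM against 1321 and 1275 and rose by 0.44 ± 0.049, and BCL2A1 at 188 and 196 against 105 and 103 and rose by 0.88 ± 0.078. BCL2 did not pass (-0.06 ± 0.21) and its groups overlapped. In all 7 of 8 passed, 2 higher and 5 lower, where 72.1% of all genes passed (35.3% higher, 36.8% lower). In bulk RNA, a smaller number of cells that hold a transcript and less of it per cell cannot be told apart.

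These differences moved with the GC content of the transcripts. The longest transcripts of BAX, BAK1 and BOK are 58.9%, 58.8% and 66.0% G or C, those of BCL2L1 and BCL2L2 56.9% and 52.3%, and those of BCL2, MCL1 and BCL2A1 45.6%, 45.1% and 39.9%. After the trend on GC content was removed from each library, the log2 fold change was -1.20 for BAX, -2.50 for BAK1 and -0.87 for BOK (adjusted p = 8.86e-06), so all 3 were still lower. BCL2L1 fell by 0.20 (adjusted p = 0.00573) and BCL2L2 by 0.41 (adjusted p = 4.86e-04). The rises of MCL1 and BCL2A1 were lost, at 0.09 (adjusted p = 0.113) and 0.11 (adjusted p = 0.249). Mitochondrial counts were 6.13 ± 0.382% in the apoptotic and 1.40 ± 0.212% in the non-apoptotic fraction at this time, and 12 of 13 mitochondrial mRNAs passed as higher (median log2 fold change 2.07). Of 8 nuclear-retained RNAs that were tested 7 passed as higher (median 0.82, all genes 0.00), and 4 higher and 1 lower after the GC correction. The part of GC content, mitochondrial RNA, nuclear RNA or the smaller number of detected genes in the fall of the effectors was not tested beyond this correction.

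**Figure D4:**
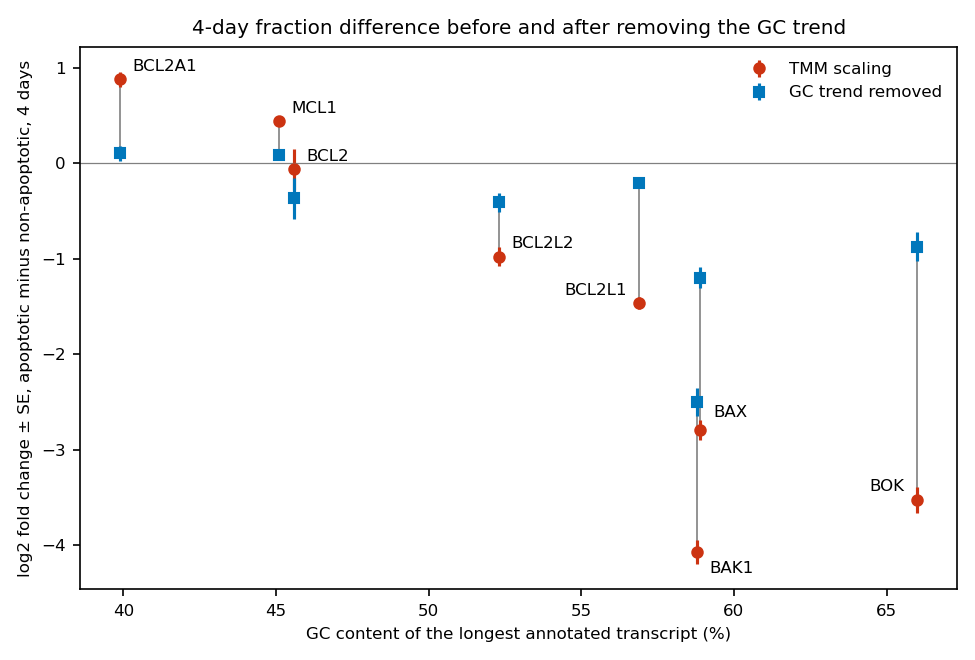
Log2 fold change of each member in apoptotic against non-apoptotic Tpm2.1 cells at 4 days, against the GC content of its longest transcript (%), with TMM scaling (red) and after the GC trend of each library was removed (blue). BAX, BAK1 and BOK, at 58.8 to 66.0% GC, move from -2.80, -4.08 and -3.53 to -1.20, -2.50 and -0.87, and MCL1 and BCL2A1, at 45.1 and 39.9%, from 0.44 and 0.88 to 0.09 and 0.11.

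The difference between the fractions changed with time. From 5 hours to 4 days it changed for 7 of the 8 members, 2 higher and 5 lower, where 66.9% of all genes passed (31.4% higher, 35.5% lower): BAK1 by -4.12 ± 0.15, BOK by -3.64 ± 0.17, BAX by -3.13 ± 0.12, BCL2L1 by -1.44 ± 0.088, BCL2L2 by -1.27 ± 0.13, MCL1 by 0.53 ± 0.07 and BCL2A1 by 0.99 ± 0.12. After the GC correction 4 of the 8 passed, the 3 effectors (-2.34 for BAK1, -1.33 for BAX and -0.63 for BOK) and BCL2L2 (-0.62). In the mean of the fractions over the 4 times 6 of 8 passed, 1 higher and 5 lower, where 58% of all genes passed (25.6% higher, 32.4% lower). The higher one was MCL1, which did not pass after the GC correction (0.003, adjusted p = 0.932) or with no filter on low counts (0.03). BCL2L2, lower in that mean, did not pass after the GC correction either (-0.001, adjusted p = 0.984). Without 4 days the means were -0.17 for BAK1 and -0.13 for BCL2L1, which passed as lower, -0.20 for BCL2A1, which then passed as lower, and 0.16 for BCL2L2, which passed as higher. BAX (0.02), BOK (-0.03), MCL1 (-0.04) and BCL2 (-0.09) then did not pass.

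Length-scaled levels show the balance of the family within a group. In attached EV cells the 5 survival genes summed to 269 ± 1.06 FPKM and the 3 effectors to 99.4 ± 0.378, a ratio of 2.71 ± 0.0209 (mean ± SD, n = 2), and in attached Tpm2.1 cells the ratio was 2.94 ± 0.0212. In suspended EV cells it went from 1.61 ± 0.08 at 5 hours to 3.27 ± 0.144 at 4 days. In non-apoptotic Tpm2.1 cells it was 3.02 ± 0.11 at 5 hours and 7.54 ± 0.155 at 4 days. In the apoptotic fraction it was 2.61 ± 0.0573, 2.93 ± 0.1 and 4.02 ± 0.0126 up to 2 days and 104 ± 5.97 at 4 days, where the effectors summed to only 5.76 ± 0.338 FPKM and the survival genes to 598 ± 0.688. This is a ratio of transcripts and says nothing of the proteins. It was not recomputed after the GC correction, which made the 4-day fall of the effectors in the apoptotic fraction smaller.

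In Tpm2.1 cells of 4 days BCL2L1 made up less, and MCL1 and BCL2A1 more, of the summed FPKM of the survival genes than in attached cells of that line. In attached Tpm2.1 cells BCL2L1 made up 42.2 ± 0.15%, MCL1 47.8 ± 0.167% and BCL2A1 4.61 ± 0.135%. In the non-apoptotic fraction at 4 days MCL1 made up 61.2 ± 0.0337%, BCL2A1 19.7 ± 0.201% and BCL2L1 16.3 ± 0.131%. In the apoptotic fraction at that time the shares were 65.5 ± 0.154%, 28.7 ± 0.605% and 4.65 ± 0.52%. In attached EV cells the shares were 43.4 ± 0.203% for MCL1, 4.05 ± 0.225% for BCL2A1 and 47.2 ± 0.176% for BCL2L1, and in suspended EV cells of 4 days 49 ± 0.659%, 2.81 ± 0.347% and 41.9 ± 1.35%, so that of BCL2A1 was lower there. MCL1 was 0.919 ± 0.00773 times BCL2L1 in attached EV cells, 1.58 ± 0.0351 times in EV cells at 5 hours and 1.17 ± 0.0534 times at 4 days. In Tpm2.1 cells MCL1 was 1.13 ± 0.00797 times BCL2L1 when attached. In the non-apoptotic fraction the ratio was 2.54 ± 0.0572 at 5 hours and 3.76 ± 0.0282 at 4 days. BCL2 held at most 1.42% in any library.

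**Figure D5:**
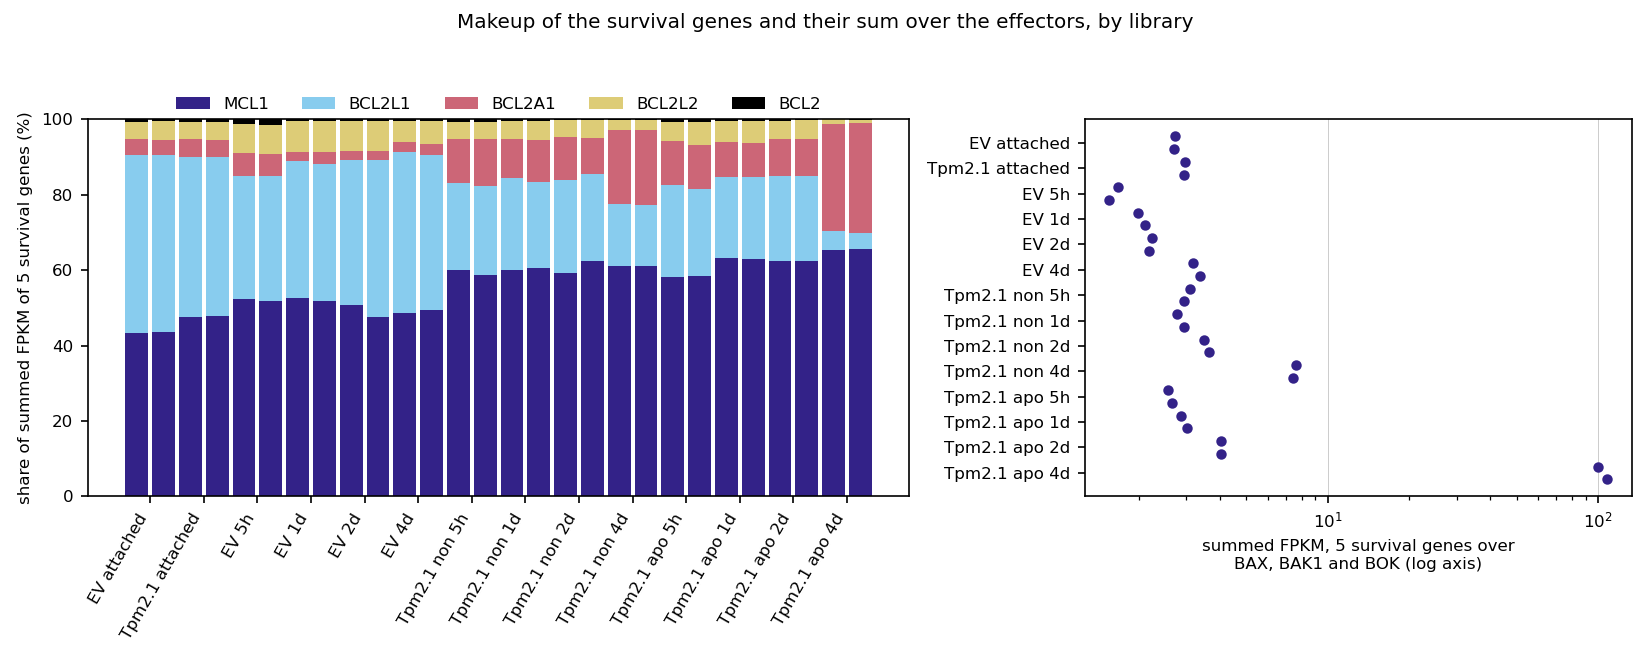
Left, share (%) of each survival gene in the summed FPKM of the 5, in each library, and right, ratio of summed survival to summed effector FPKM in each library (log axis). BCL2A1 holds a mean of 19.7% in non-apoptotic cells at 4 days. The mean ratio is near 104 in the apoptotic fraction at 4 days against 1.61 to 7.54 in the means of the other 13 groups.

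Ordered by level over the 14 groups, the members had different extremes. MCL1 and BCL2A1 were highest in the apoptotic and then the non-apoptotic fraction at 4 days, and lowest in suspended EV cells, MCL1 at 5 hours (286 ± 9.34 CPM) and BCL2A1 at 2 days (4.16 ± 0.199 CPM). BAX, BAK1, BOK and BCL2L1 were highest in attached EV cells. BCL2 was highest in EV cells of 5 hours, a group that overlapped with attached Tpm2.1 but not with attached EV cells. It was lowest in the 4-day fractions, which overlapped with each other. BCL2L2 was highest in EV cells at 4 days. The highest group mean was 46.2 times the lowest for BCL2A1, 24.7 for BAK1, 16.3 for BOK, 12.2 for BAX, 6.16 for MCL1, 4.39 for BCL2L1, 4.32 for BCL2 and 2.29 for BCL2L2. Without the apoptotic group of 4 days it was 25.1 for BCL2A1 but 1.5 for BAK1, 1.76 for BAX and 2.16 for BOK. Of the 13 pairs of neighbouring groups in the order, 4 did not overlap for BAK1 and BCL2, 5 for BOK and BCL2L2, 6 for BAX, 8 for BCL2A1, 9 for BCL2L1 and 10 for MCL1. The same count was not made over all genes, and with 2 libraries per group these counts only describe the order.

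Across the 14 group means of log2 CPM, as a description over groups that share lines and libraries, BAX and BAK1 correlated at r = 0.985, and at 0.732 without the apoptotic group of 4 days. MCL1 and BCL2A1 correlated at 0.918 and, without that group, 0.862, and BCL2L1 and BOK at 0.714 and 0.883. Among 12874 protein-coding genes, the genes most like MCL1 were FYN (r = 0.976, and 0.964 without that group), CNST and ZEB2. Those most like BCL2A1 were MCC (0.968 and 0.949), MGAT4C and ADAMTS18, and those most like BCL2 were SKP2 (0.974 and 0.966), TFDP1 and DNAJC9. TLE1 (0.967 and 0.974), WSB2 and KCTD10 were nearest to BCL2L1, and ZDHHC1 (0.971 and 0.953), PFKL and TMEM134 to BCL2L2. For the effectors the nearest were TYSND1 (0.995 and 0.924), POLRMT and TIMM17B for BAX, NBL1 (0.997 and 0.845), CD2BP2 and LAGE3 for BAK1, and KIAA2013 (0.996 and 0.963), CHMP1A and HPS6 for BOK.

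BH3-only genes encode proteins that the survival members bind, and only some of these proteins activate BAX and BAK directly. Of 8 listed genes 7 were tested. In attached Tpm2.1 against EV cells, where 20.5% of all genes passed, 2 of 7 rose and 1 fell (median 0.12, all genes 0.00). In the line difference in suspension, where 60.5% passed, 4 of 7 rose and 3 fell (median 0.51, all genes -0.03). PMAIP1, whose product NOXA binds MCL1 and BFL-1, was higher by 1.73 ± 0.039 in that difference, and its suspension response was 1.06 ± 0.083 in Tpm2.1 minus EV cells. BID, which caspases cut into an activator of BAX and BAK, was higher by 1.00 ± 0.052 and BMF, linked to detachment from the matrix, lower by 1.09. In the apoptotic against the non-apoptotic fraction at 4 days, where 72.1% of all genes passed (35.3% higher, 36.8% lower), 1 of 7 rose and 5 fell (median -1.24, all genes 0.00). BAD, which binds BCL-XL, was at 0.139 ± 0.196 CPM in apoptotic and 29.9 ± 1.88 in non-apoptotic cells of that time, and PMAIP1 had a log2 fold change of 0.54 ± 0.067. These 4-day values rest on the apoptotic libraries with the marked GC trend and are given without the GC correction.

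BCL2A1 is a known target of NF-kB, so 10 other genes known as its targets were read beside it. In attached Tpm2.1 against EV cells, where 20.5% of all genes passed, 8 of 10 passed, all higher (median 0.53, all genes 0.00), while BCL2A1 itself did not pass (0.10 ± 0.11). In non-apoptotic against attached Tpm2.1 cells, where 61.4% of all genes passed and 30.8% passed as higher, 10 of 10 passed, all higher (median 1.27, all genes 0.03). In the line difference in suspension, where 60.5% passed and 28.6% passed as higher, 9 of 10 passed, all higher (median 1.24, all genes -0.03). In that difference CXCL8, a chemokine, was higher by 3.79 ± 0.063, BIRC3, an inhibitor of apoptosis, by 2.88 ± 0.046, TNFAIP3 by 1.97 ± 0.042 and ICAM1 by 1.55 ± 0.041, beside 2.64 for BCL2A1. In suspended against attached EV cells, where 66.3% of all genes passed, 8 of 10 rose and 1 fell (median 0.69, all genes 0.06), where BCL2A1 fell by 0.99. Between the fractions at 4 days, where 72.1% of all genes passed, 3 of 10 rose and 6 fell (median -0.35, all genes 0.00), and the balance turned to 5 higher and 3 lower after the GC correction. BIRC3 was at 1.25 ± 0.071 and ICAM1 at -1.96 ± 0.08 there. A list of 10 p53 target genes also had more higher than lower genes. Between the attached lines 6 passed as higher and 0 as lower (median 0.32). Between the lines in suspension 6 passed as higher and 1 as lower (median 0.30). The part of NF-kB or p53 in the levels of the members was not tested.

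Some reads cannot be assigned with certainty, since the strand used in counting is not stated. BCL2L1 overlaps the antisense gene ABALON, with 0 to 339 counts per library, and BCL2L2 shares its span with the readthrough gene BCL2L2-PABPN1 (5 to 32 counts) and, on the other strand, PPP1R3E (135 to 508 counts). BAK1 has processed pseudogene copies, BAK1P1 with at most 22 counts and BAK1P2 with at most 4. Counts are per gene, so the long and short forms of MCL1 and of BCL2L1, which differ in function, are summed.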

How the data were processed

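RNA of 28 MDA-MB-231 libraries was measured by sequencing; per the labels' protocols, libraries were built from poly-T selected RNA with random hexamers. The authors deposited whole-number counts per gene and, for each of them, FPKM values. The deposited tables also hold a gene length column. The submitters' processing notes name the build hg38 and the tool DESeq2 without its role. The aligner, counter and counting strand are not given in the sources that were used here. All 58735 gene identifiers and coordinates matched GENCODE 29, and 23006 genes had 0 counts in every library. Columns were matched to samples by library name, and groups came from the labels.

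Counts were fitted with edgeR 4.0.16 (limma 3.58.1, R 4.3.3): TMM scaling, filterByExpr, 1 mean per group over all 28 libraries and the quasi-likelihood F test, with 17191 genes tested, 14 residual and 23 prior degrees of freedom, and a common biological coefficient of variation of 4.77%. The SE is the absolute log2 fold change over the square root of F, which is approximate. In each of 26 contrasts p-values were adjusted by the Benjamini-Hochberg method over all tested genes, with a threshold of 0.05, and means weight the times equally. Levels within a gene are CPM after TMM scaling, correlations use log2 CPM with a prior count of 2, and levels between genes are the deposited FPKM. All 8 members were named, and of each other list up to 4 genes, those of smallest p that reached 1 CPM in some group. The members and lists were chosen with earlier results of these data known. Promoter windows are from RefSeq, searched on both strands.

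Results were recomputed with DESeq2 1.42.0, with DESeq2 size factors, with library totals without TMM, with no filter, on a contrast's own libraries, with a block for the replicate number, after a GC correction (each library's lowess trend, span 0.2, on the GC content of a gene's longest transcript was removed for 17183 genes), with block and GC correction, with means that omit 4 days, and with each library left out in turn; a lone library was assumed to vary as the other groups do. The fit without the apoptotic libraries of 4 days and the correlations without that group were chosen after seeing the data. Scripts were tested on simulated data. Replicates within each group differed by more than sampling noise. Total counts of 13043529 to 27416335 per library limit the precision of low genes, the lowest being BAK1 with 32 counts.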

Additional observations from a re-analysis of the deposited data

Results flagged for a closer look

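For the following members a test of the difference between 2 changes was itself past the threshold. The response to suspension, in the mean over times, differed between non-apoptotic Tpm2.1 and EV cells for BCL2A1 (2.54 on the log2 scale), MCL1 (0.87) and BCL2 (-0.53). In that test 33.5% of all genes tested passed, a share near that of the members, and effects of suspension and of bead separation cannot be told apart. The difference between the apoptotic and non-apoptotic fractions changed from 5 hours to 4 days for BAK1 (-4.12), BOK (-3.64), BAX (-3.13), BCL2L1 (-1.44), BCL2L2 (-1.27), BCL2A1 (0.99) and MCL1 (0.53), where 66.9% of all genes passed. The second set rests on both apoptotic libraries of 4 days.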

How the results depend on the processing

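Over the 26 contrasts, the number of members that passed kept within 1.5 times its value under the fit without a filter on low counts, the replicate block alone and, where they apply, the means without 4 days and the fit without the apoptotic libraries of 4 days. All 144 changes that passed had the same direction in the deposited FPKM. Those values come from the same libraries, so this agreement was largely fixed in advance and is no independent check. Same-numbered libraries share only a number: over 91 pairs of groups the correlation of their deviations ran from -0.127 to 0.194 (median 0.00552), and it was above 0.1 for 6 pairs. The replicate block gained 6 calls of a member and lost 1. In the fractions at 1 day 2 members passed, but 1 with DESeq2 size factors or with DESeq2, and 0 of 8 by edgeR with library totals without TMM or with the libraries of the contrast alone, each with 4 members at an unadjusted p under 0.05. With the GC correction, with or without the replicate block, 7 members passed in place of 3 in the difference of the suspension responses and 4 in place of 7 in the change of the fraction difference. With the libraries of a contrast alone, 4 in place of 2 passed between the attached lines and 1 in place of 3 between the fractions at 2 days. Leaving out 1 library gave 3 to 8 members in EV suspension at 4 days, 1 to 2 between the fractions at 5 hours, 0 to 1 at 1 day and 1 to 4 at 2 days, by edgeR; the 0, without apoptotic replicate 2, had 1 member at an unadjusted p under 0.05. The direction of BAK1 in EV suspension at 5 hours turned to 0.0242 with library totals without TMM. The GC correction, with or without the replicate block, turned BOK between the fractions at 5 hours (-0.244), BOK between the lines in suspension at 2 days (0.263), at 4 days (0.0394) and in the mean (0.161), BAK1 in that mean (0.0936), and BCL2L1 (0.751) and BCL2L2 (0.0799) from 5 hours to 4 days in apoptotic cells, with 0.16, 0.0934, 0.75 and 0.0813 for the last 4 under the replicate block with the correction. Without 4 days the mean of the fractions turned for BCL2L2 (0.164), MCL1 (-0.0438), BCL2A1 (-0.195) and BAX (0.0208). The cause was not tested. Leaving out TMM moved the median log2 fold change of all genes by -0.31 in apoptotic cells from 5 hours to 4 days and by 0.196 in EV suspension at 5 hours.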

Other observations

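Other gene lists of the mitochondrial pathway were read beside the members, with counts of tested genes that passed. Of all genes 66.3% passed in suspended against attached EV cells, 61.4% in non-apoptotic against attached Tpm2.1 cells, 60.5% between the lines in suspension and 72.1% between the fractions at 4 days, and the counts below are to be read against these shares. Values between the fractions at 4 days, here and below, rest on the apoptotic libraries with the marked GC trend. They are given without the GC correction unless it is named. Of the outer membrane channel genes and partners of BAX and BAK, 1 of 8 rose and 7 fell (median log2 fold change -0.50, all genes 0.06) in suspended against attached EV cells, and 6 of 8 rose and 2 fell (median log2 fold change 0.46, all genes 0.00) in the apoptotic against the non-apoptotic fraction at 4 days, which turned to 3 higher and 4 lower after the GC correction. VDAC2, a channel protein that holds BAK at the membrane, was at 1.09 ± 0.051 in the latter and MFN2, a fusion protein of mitochondria, at -1.31 ± 0.067.

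Of the factors released from mitochondria and the apoptosome genes, 5 of 9 passed, all lower (median log2 fold change -0.35, all genes 0.00) at 4 days, where HTRA2 was at -2.21 ± 0.14 and ENDOG had 0.369 ± 0.394 CPM in apoptotic against 8.1 ± 0.0669 in non-apoptotic cells, while CYCS, which encodes cytochrome c, was at 0.06 ± 0.075 and did not pass. CYCS fell in suspension in EV cells, by 1.01, and in non-apoptotic Tpm2.1 cells, by 0.66. Of the genes that act on MCL1 protein turnover, 2 of 8 rose and 4 fell (median log2 fold change -0.22, all genes 0.03) in non-apoptotic against attached Tpm2.1 cells; CDC20, which takes part in the breakdown of MCL1 in mitosis, fell by 1.89 there and by 1.87 in EV cells.

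Of other BCL2-related genes, 6 of 9 passed, all higher (median log2 fold change 0.14, all genes -0.03) between the lines in suspension and 3 of 9 rose and 4 fell (median log2 fold change -0.01, all genes 0.00) between the fractions at 4 days, where BCL2L12 was at -4.22 ± 0.19 and BCLAF1 at 1.45 ± 0.055.

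Of the mitochondrial mRNAs, 13 of 13 passed, all higher (median log2 fold change 0.66, all genes 0.06) in EV suspension and 12 of 13 passed, all lower (median log2 fold change -0.71, all genes 0.03) in non-apoptotic Tpm2.1 suspension. Of the nuclear-retained RNAs, 6 of 8 rose and 1 fell (median log2 fold change 0.63, all genes 0.06) in EV suspension, with MALAT1 at 2.74 ± 0.091 there and at -0.04 ± 0.075 in non-apoptotic Tpm2.1 suspension.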
